A study of Homo sapiens with 6 samples.

Results

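Intermediate filaments were examined through 10 genes: VIM and SYNM, the keratin genes KRT7, KRT8, KRT80, KRT18 and KRT19, and the lamin genes LMNA, LMNB1 and LMNB2. They were found by symbol among the 59715 gene IDs of the count table, each matched 1 ID, and all 10 passed the filter on low counts that left 14543 genes for testing. The 10 were selected on their measured differences between the genotypes in these same libraries, so those differences are described here with standard errors and without a test. Poly(A) RNA libraries came from HCT116, a long-established line of human colorectal carcinoma. Wild-type cells, with the histone H3 lysine methyltransferase MLL4 intact (MLL4WT), gave 3 libraries and MLL4 knockout cells (MLL4KO) gave 3, both grown in the same serum-containing medium with no treatment named. The labels do not say how the knockout was made, whether it is 1 clone, or whether replicate libraries are separate cultures. The p-values for other genes therefore set a difference against the spread between these libraries only. Variation between clones or cultures may be missing from that spread.

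Library totals ran from 6829400 to 19736751 counts, the lowest in MLL4WT replicate 1. A code in the column names is read here as a flow cell code, though the labels do not call it so. MLL4WT replicate 1 alone carried its code. Levels are CPM, counts relative to the scaled library total, and 1 count is worth between 0.0497 and 0.149 CPM. KMT2D, the human gene that the name MLL4 most often denotes, stood at 235 ± 4.6 CPM in MLL4WT against 232 ± 9.56 in MLL4KO (SD, n = 3). KMT2B, which some authors also name MLL4, fell from 90.5 ± 3.44 to 63.2 ± 3.45 CPM (adjusted p = 2.3e-05, edgeR). Which of them was deleted, and where, is not stated, so counts over a whole gene do not check the labels. MLL4WT replicate 3 and MLL4KO replicate 1 share a flow cell code and stand apart in transcripts of neuronal genes. Over 7 such genes, chosen after their values were seen (NEFL, NEFM, INA, DCX, STMN2, GAP43 and CHL1), these libraries held 84 and 111 counts, and the other libraries held 2, 6, 6 and 5. Results that rest on those libraries are also given without them.

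Intermediate filament proteins share a central coiled-coil rod and assemble into rope-like polymers. Type I and type II keratins pair as obligate heteropolymers in epithelia, with keratins 8, 18 and 19 typical of simple epithelium such as that of the gut. Vimentin, a type III protein, is typical of mesenchymal cells and of epithelial cells that take on mesenchymal traits, and is made by many cultured carcinoma lines. Lamins form the meshwork under the inner nuclear membrane, with the A type from LMNA and the B type from LMNB1 and LMNB2.

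Across the 10 genes the summed level was 3085 ± 68.3 CPM in MLL4WT and 2097 ± 4.29 CPM in MLL4KO (SD, n = 3). The 5 keratin genes summed to 1345 ± 21.9 and 863 ± 6.28 CPM, and the 3 lamin genes to 1551 ± 53.9 and 1222 ± 7.64 CPM. The differences ranged from a 21.3-fold lower level of VIM to none that exceeded the spread in LMNB1 and SYNM. In these bulk samples fewer cells with a transcript and less of it per cell cannot be told apart. In the edgeR quasi-likelihood fit over all 14543 genes, 8 of the 10 were among those called lower at an adjusted p under 0.05 and none among those called higher, where 41.4% of all tested genes were called in either direction and 21.6% lower. The libraries of the 2 genotypes did not overlap in the same 8 genes, all lower in MLL4KO. Of all tested genes, 52.5% did not overlap in either direction and 26.6% did not overlap and were lower. The median log2 fold change was -0.69 over the 10 genes and -0.0044 over all tested genes. Because the list was drawn up with this contrast known, nothing is read from these counts.

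**Figure D1:**
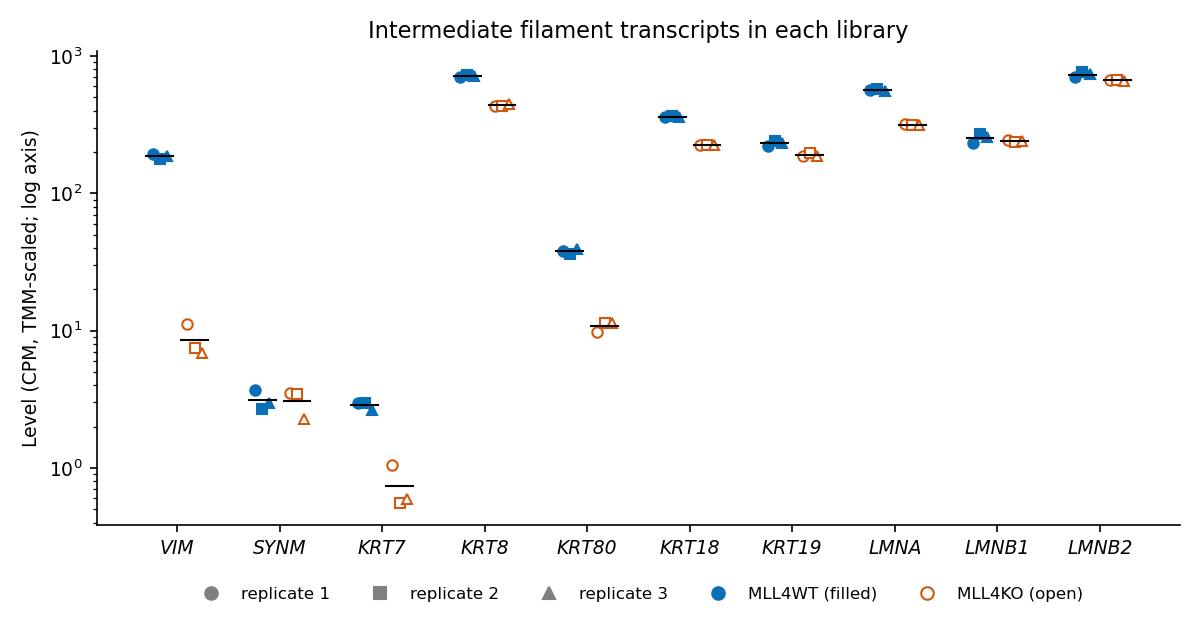
Level of each of the 10 filament genes in CPM on a log axis, with 1 point per library (filled MLL4WT, open MLL4KO, marker shape by replicate number) and a bar at each group's mean. VIM, KRT7 and KRT80 show the widest gaps between genotypes, and the points of SYNM and LMNB1 overlap.

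VIM (chromosome 10, 17228259 to 17237593, plus strand, GRCh38), the vimentin gene, was at 193, 179 and 186 CPM in MLL4WT replicates 1 to 3 and at 11.2, 7.46 and 6.91 CPM in MLL4KO replicates 1 to 3. Every MLL4KO library lay far below every MLL4WT library, and within MLL4KO replicate 1 was the highest. The counts behind these levels were 1297, 2611 and 3230 in MLL4WT and 226, 121 and 104 in MLL4KO, so VIM remained detected in each knockout library. The log2 fold change was -4.41 ± 0.13. The difference was -4.04 between the libraries of the flow cell code with the neuronal transcripts and -4.64 within the other code that held both genotypes. Without the former libraries the fit gave -4.68. Read from MLL4KO replicates 2 and 3 alone VIM was therefore somewhat lower, with MLL4KO replicate 1 at 1.56 times their mean. Of 18 genes called lower with a log2 fold change of -4 or below and at least 5 CPM in MLL4WT, VIM among them, 2 had no count in MLL4KO. In the other 16 the highest knockout library was replicate 1 for 9, replicate 2 for 3 and replicate 3 for 4. Summed over the 18 without VIM, MLL4KO replicates 1 to 3 held 17.1, 16.4 and 16.4 CPM. The part of the libraries with neuronal transcripts in the VIM difference was not tested. The ratio of VIM to the sum of the 5 keratin genes was 0.146, 0.131 and 0.138 in MLL4WT and 0.0131, 0.00862 and 0.00796 in MLL4KO.

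The sequences upstream of VIM and LMNA are shown because these were the cytoplasmic filament gene and the lamin gene with the widest difference. Each is the 250 bases before a RefSeq start on GRCh38.p14, 5′ to 3′, with matches to 5 short motifs in capitals. That of VIM spans chr10:17227991-17228240 on the plus strand, just upstream of the gene and inside the gene body of VIM-AS1, which runs on the opposite strand. That of LMNA spans chr1:156082323-156082572 on the plus strand, before the first of 3 listed starts.
VIM: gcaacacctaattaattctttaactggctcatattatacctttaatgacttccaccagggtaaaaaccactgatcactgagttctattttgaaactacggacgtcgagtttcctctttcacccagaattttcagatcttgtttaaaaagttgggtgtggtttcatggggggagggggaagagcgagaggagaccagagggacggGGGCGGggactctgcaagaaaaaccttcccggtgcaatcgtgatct
LMNA: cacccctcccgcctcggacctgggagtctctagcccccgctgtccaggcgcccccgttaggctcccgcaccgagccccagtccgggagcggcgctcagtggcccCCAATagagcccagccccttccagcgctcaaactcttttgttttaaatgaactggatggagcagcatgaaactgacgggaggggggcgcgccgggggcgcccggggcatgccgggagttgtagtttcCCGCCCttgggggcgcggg
The motifs, searched on both strands and none containing another, were 5 in number. They were the GC box GGGCGG, bound by SP1-family factors, and the AP-1 motif TGANTCA. The others were the box CCAAT, the TATA box with letters TATAAA, and an E-box that ZEB and SNAI factors can bind, CACCTG. The VIM window held 1 GC box and none of the others, at 46.0% G and C and 8 CpG dinucleotides. The LMNA window held 1 GC box and 1 CCAAT, at 68.8% G and C and 21 CpG. The windows of the other listed LMNA starts, not shown, differed. That of start 2 held 1 GC box alone, and that of start 3 held 2 GC boxes and 1 CACCTG. Among 34943 such windows of all genes, 42.5% held a GC box, 6.59% an AP-1 motif, 32% CCAAT, 10.8% TATAAA and 17.5% CACCTG, with medians of 58.0% G and C and 11 CpG. RefSeq windows matched 6 of the 10 genes, the others being KRT8, LMNB1, LMNB2 and SYNM. A match is a run of letters and not a bound site.

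SYNM (chromosome 15, 99098217 to 99135593), which encodes synemin, a large filament protein that joins vimentin and desmin polymers, was low but counted in every library. Its level was 3.71, 2.67 and 2.99 CPM in MLL4WT and 3.53, 3.45 and 2.26 CPM in MLL4KO, from 25, 39 and 52 against 71, 56 and 34 counts. The groups overlapped, and the log2 fold change was 0.03 ± 0.23. The standard error was close to the size of the KRT19 difference, so a difference of that size was not detectable in SYNM at this depth.

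Among the type II keratins, KRT8 (chromosome 12, 52897187 to 52949954, minus strand), the main type II keratin of simple epithelium, was at 703, 726 and 710 CPM in MLL4WT and 435, 434 and 444 CPM in MLL4KO. The libraries of each genotype lay within a few percent of each other, and the log2 fold change was -0.70 ± 0.04, a 1.63-fold lower level. KRT80 (chromosome 12, 52168996 to 52192000), an epithelial type II keratin of more restricted expression, was at 38.0, 35.9 and 39.4 CPM in MLL4WT and 9.70, 11.3 and 11.4 CPM in MLL4KO, 3.51-fold lower (log2 -1.81 ± 0.08). Here MLL4KO replicate 1 was the lowest of its group, the opposite of its place for VIM. KRT7 (chromosome 12, 52232520 to 52252186), a keratin of ducts and glands that colon epithelium mostly lacks, was rare, at 2.97, 2.95 and 2.64 CPM in MLL4WT and 1.05, 0.555 and 0.598 CPM in MLL4KO. These levels rested on 20, 43 and 46 counts against 21, 9 and 9, and the log2 fold change was -1.91 ± 0.30. MLL4KO replicate 1 held 21 of the 39 knockout counts of KRT7, and the difference was -2.34 without the libraries of its flow cell code.

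Of the type I keratins, KRT18 differed as KRT8 did and KRT19 less. KRT18 (chromosome 12, 52948871 to 52952901, plus strand), the partner of keratin 8, was at 357, 363 and 357 CPM in MLL4WT and 224, 223 and 226 CPM in MLL4KO, with a log2 fold change of -0.68 ± 0.04. KRT19 (chromosome 17, 41523617 to 41528308), the smallest keratin and a type I chain that lacks most of the tail domain, was at 222, 240 and 234 CPM in MLL4WT and 187, 196 and 187 CPM in MLL4KO. Its groups did not overlap, but the gap was small, at 1.23-fold (log2 -0.29 ± 0.05). With trends of GC content and length removed from each library the KRT19 difference shrank to -0.10 and was no longer among the calls.

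KRT8 and KRT18 kept an almost fixed ratio in every library, although both were lower in MLL4KO. The ratio of KRT8 to KRT18 CPM was 1.97, 2.0 and 1.99 in MLL4WT and 1.94, 1.94 and 1.97 in MLL4KO, and the groups overlapped. Of all 45 pairs among the 10 genes, this pair had the most alike pattern. Its root mean square difference was 0.02 over the 6 libraries, in log2 CPM centred on the MLL4WT mean. Closeness of this degree was not particular to the pair. Of genes outside the 10, METTL1, P4HB and TRIP6 lay at 0.0207, 0.0243 and 0.0251 from KRT18, against 0.0200 for KRT8. KRT19 did not keep pace with KRT18. Its ratio to KRT18 was 0.622, 0.661 and 0.655 in MLL4WT and 0.833, 0.875 and 0.827 in MLL4KO, so that keratin 19 made up more of the type I transcripts there. The type II to type I ratio, with KRT7, KRT8 and KRT80 over KRT18 and KRT19, was 1.28 ± 0.01 in MLL4WT and 1.09 ± 0.02 in MLL4KO in CPM (SD, n = 3), and 0.536 ± 0.01 against 0.440 ± 0.01 per kilobase of exon. In the annotation KRT8 and KRT18 lie head to head and overlap by 1084 bases. The library kit is not stated to keep strand, so reads of that overlap cannot be assigned between them. Pseudogene copies named after the keratins, which can take reads of the parent, held few counts: 19 of 51 copies of KRT8 had any, 0.827% of the KRT8 count in MLL4WT and 0.921% in MLL4KO, and the 67 copies of KRT18 held 0.287% and 0.555% of its count.

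**Figure D2:**
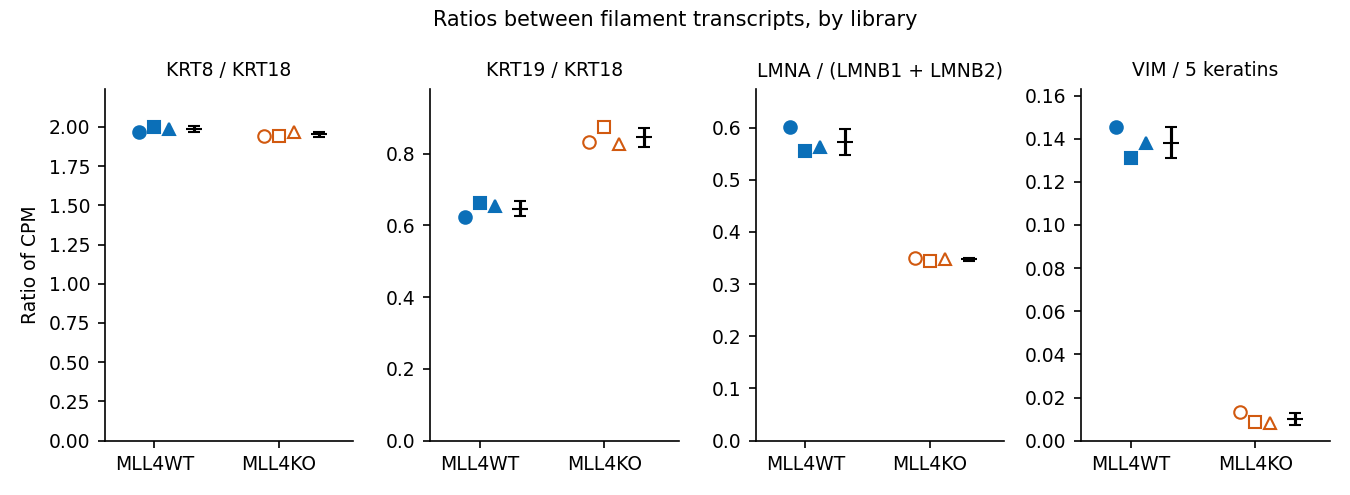
Ratios of CPM between filament transcripts in each library (filled MLL4WT, open MLL4KO, marker shape by replicate number), with mean and SD at the right of each group and axes from 0. KRT8 over KRT18 stays between 1.94 and 2.0, while the other 3 ratios separate the genotypes.

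Of the lamin genes, LMNA differed more than either B-type gene. LMNA (chromosome 1, 156082573 to 156140089), which gives lamins A and C by alternative splicing, was at 562, 572 and 560 CPM in MLL4WT and 319, 312 and 314 CPM in MLL4KO. No library of a genotype came near the other group, and the log2 fold change of -0.84 ± 0.04 is a 1.79-fold lower level. LMNB1 (chromosome 5, 126776623 to 126837020), a B-type lamin that stays farnesylated at the membrane, was at 233, 270 and 258 CPM in MLL4WT and 246, 235 and 241 CPM in MLL4KO. The groups overlapped, with MLL4WT replicate 1 the lowest of all libraries, and the log2 fold change was -0.08 ± 0.05. Without that shallow library it was -0.13, and LMNB1 then joined the genes called lower, as it did with a flow cell term (-0.13). LMNB2 (chromosome 19, 2427638 to 2456996), the other B-type lamin, was at 701, 761 and 738 CPM in MLL4WT and 667, 671 and 662 CPM in MLL4KO, 1.10-fold lower (log2 -0.14 ± 0.04). LMNB2 was among the called genes in 7 of 17 alternative analyses. It was not with total counts alone (log2 -0.08), upper quartile factors (-0.08), GC and length trends removed (-0.07) or no filter (-0.13), nor without MLL4WT replicate 2 or 3 or any 1 MLL4KO replicate (from -0.14 to -0.11), nor without the libraries with neuronal transcripts (-0.13).

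The balance of A-type and B-type transcripts differed accordingly. LMNA over the sum of LMNB1 and LMNB2 was 0.602, 0.555 and 0.562 in MLL4WT and 0.349, 0.345 and 0.348 in MLL4KO. The knockout libraries were nearly identical in this ratio, and their mean was 0.606 times that of MLL4WT. LMNB2 over LMNB1 was 2.90 ± 0.10 in MLL4WT and 2.78 ± 0.07 in MLL4KO (SD, n = 3), with overlapping groups.

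Levels of different genes were compared per kilobase of the union of a gene's exons. In MLL4WT the order from the top was LMNB2 at 135 ± 5.58 CPM per kilobase, KRT18 at 112 ± 0.987, KRT8 at 104 ± 1.69, KRT19 at 99.4 ± 3.86, LMNA at 80.8 ± 0.940, LMNB1 at 69.7 ± 5.24, VIM at 36.0 ± 1.32, KRT80 at 8.69 ± 0.401, KRT7 at 0.697 ± 0.05 and SYNM at 0.40 ± 0.07 (SD, n = 3). Among neighbours in this order, only KRT8 and KRT19 had libraries that overlapped. In MLL4KO the order was LMNB2 at 123 ± 0.852, KRT19 at 81.2 ± 2.22, KRT18 at 69.7 ± 0.352, LMNB1 at 66.2 ± 1.47, KRT8 at 63.6 ± 0.810, LMNA at 45.1 ± 0.462, KRT80 at 2.49 ± 0.224, VIM at 1.66 ± 0.457, SYNM at 0.394 ± 0.09 and KRT7 at 0.179 ± 0.07, with no overlap between neighbours. VIM thus stood below KRT80 in the knockout, and KRT19 above KRT18. The order depends on the length used. By the longest transcript KRT8 came first in both genotypes, at 249 ± 4.05 in MLL4WT, LMNA came next in MLL4WT but below LMNB2, KRT19 and KRT18 in MLL4KO, and in MLL4KO VIM lay next above KRT80 with overlapping libraries.

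The tested genes most like VIM over the 6 libraries, by the same centred log2 CPM measure with a prior count of 2, were PCDHAC2, S100A4 and ZNF566, at root mean square differences of 0.19, 0.20 and 0.26. S100A4, a small calcium-binding protein gene, averaged 64.8 ± 2.10 CPM over MLL4WT against 2.42 ± 0.325 over MLL4KO (SD, n = 3). The clustered protocadherin gene PCDHAC2 and the zinc finger gene ZNF566 were rare, at 127 and 99 counts over MLL4WT against 1 and 0 over MLL4KO, and the prior count pulls such genes toward smaller differences. Those most like KRT7, which had the next largest difference, were CSTA, a cysteine protease inhibitor gene, MSRB3-AS1 and an unnamed gene, at 0.12, 0.14 and 0.19.

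Genes next to the filament genes were compared to see whether neighbours differed as well. KRT80, KRT7, KRT8 and KRT18 lie within the type II keratin cluster of chromosome 12, between 52168996 and 52952901. In chromosome order they followed each other as tested genes, with 645 kb between KRT7 and KRT8. Every other keratin of that stretch was too low to test. On the KRT80 side an unnamed gene at 86.9 kb (log2 0.21 ± 2.12) and ATG101 at 91.5 kb (log2 -0.07 ± 0.06) did not pass. The next tested gene beyond KRT18 was EIF4B, a translation initiation factor gene, which rose 1.18-fold from 778 ± 74.5 to 916 ± 12.4 CPM (SD, n = 3; adjusted p = 0.00998, edgeR). On chromosome 10 around VIM, TRDMT1, HACD1 and STAM did not pass, at log2 fold changes of -0.20, 0.20 and -0.03. VIM-AS1, which overlaps the start of VIM on the other strand, fell 1.63-fold from 3.22 ± 0.934 to 1.97 ± 0.371 CPM (adjusted p = 0.0487, edgeR). Without strand, reads of the stretch the genes share cannot be told apart, and the call was lost in 10 of 17 alternatives, among them leaving out any 1 MLL4KO replicate (log2 from -0.85 to -0.58) or MLL4WT replicate 3 (log2 -0.41).

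At 464 kb from KRT19, KRTAP2-3, a hair keratin-associated protein gene from a family of similar copies, fell 6.89-fold from 30.6 ± 3.74 to 4.43 ± 0.694 CPM (adjusted p = 1.93e-08, edgeR). The type I keratin gene KRT15 next to KRT19 did not pass, at log2 -0.91 ± 0.36. The initiation factor gene EIF1 fell 1.17-fold (adjusted p = 0.00504) and HAP1, a huntingtin-associated protein gene, rose 2.53-fold from 0.962 ± 0.386 to 2.52 ± 0.314 CPM (adjusted p = 0.00457, edgeR for both). On 1 side of LMNA lay both its called neighbours. RAB25, an epithelial small GTPase gene, fell 1.38-fold (adjusted p = 0.00124) and MEX3A, an RNA-binding protein gene, rose 1.31-fold (adjusted p = 0.00162, edgeR). ALDH7A1, a dehydrogenase gene 181 kb from LMNB1, rose from 87.8 ± 12.1 to 128 ± 1.13 CPM (adjusted p = 0.000315, edgeR). PHAX, which lies between ALDH7A1 and LMNB1, did not pass (log2 0.05 ± 0.06). Near LMNB2, GNG7, a G protein gamma subunit gene, rose 2.52-fold from 9.49 ± 1.53 to 23.8 ± 0.344 CPM (adjusted p = 2.04e-06, edgeR). The mitochondrial import gene TIMM13 fell 1.24-fold (adjusted p = 0.000266) and the stress gene GADD45B fell 1.34-fold (adjusted p = 0.00724, edgeR). TIMM13 overlaps LMNB2 in the annotation, so reads of the stretch they share may be counted for either gene. ARRDC4, an arrestin-domain gene 1124 kb from SYNM, rose 1.52-fold (adjusted p = 0.0103, edgeR). IGF1R, between ARRDC4 and SYNM, and TTC23, 0.729 kb from SYNM on its other side, did not pass (log2 0.02 and 0.18). Of the 28 neighbours that were not among the 10 genes, 6 rose, 6 fell and 16 did not pass, 42.9% called against 41.4% of all tested genes. EIF1 and RAB25 were no longer called without the libraries with neuronal transcripts (log2 -0.19 and -0.37).

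**Figure D3:**
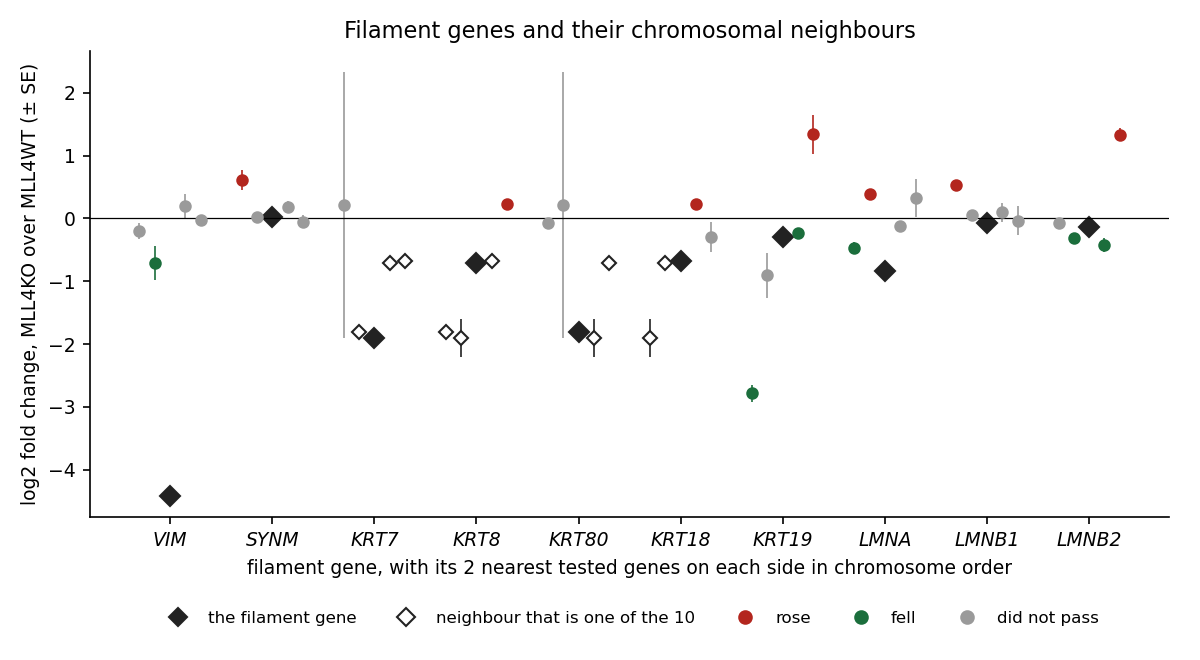
Log2 fold change (MLL4KO over MLL4WT, bars ± SE) of each filament gene (filled diamond) and of its 2 nearest tested genes on each side in chromosome order. Circles are neighbours that rose, fell or did not pass the test, and open diamonds are neighbours that belong to the 10. VIM lies far below its neighbours, at -4.41.

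Other genes of the filament system were read from lists of keratins, other filament proteins, linkers, lamina proteins, prelamin enzymes and factors of the epithelial to mesenchymal transition. Of their 103 genes 45 could be tested, 10 rose and 13 fell, 51.1% called against 41.4% of all tested genes, with a median log2 fold change of -0.06. Most other keratins were low. All 23 other type II keratin genes were under 1 CPM in every library, none could be tested, and 13 had 0 counts in every library. Of 27 other type I genes, 23 were under 1 CPM in every library, 9 of them with 0 counts throughout, and 4 could be tested. KRT23, a type I keratin of some intestinal tumours, rose from 4 counts over MLL4WT to 88 over MLL4KO, or 0.145 ± 0.149 to 1.73 ± 0.376 CPM (adjusted p = 0.000262, edgeR), opposite in direction to the keratins above. KRT222, a truncated type I keratin gene, rose 1.42-fold (adjusted p = 0.0154, edgeR), a call lost without MLL4KO replicate 2 (log2 0.46) or 3 (log2 0.49).

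Of 12 other type III and IV filament genes, 5 were tested and 2 fell. DES, the desmin gene of muscle and a type III relative of VIM, fell 3.53-fold from 3.20 ± 0.09 to 0.900 ± 0.05 CPM (adjusted p = 9.49e-05, edgeR). IFFO2, a filament family orphan, fell 1.32-fold (adjusted p = 0.000323, edgeR). NES, for nestin, which copolymerises with vimentin, was at 49.1 ± 4.82 and 48.6 ± 3.54 CPM and did not pass. Among 7 transcription factor genes of the epithelial to mesenchymal transition 3 were tested. ZEB1, a repressor of epithelial genes, rose 1.42-fold from 10.6 ± 0.127 to 15 ± 1.04 CPM (adjusted p = 0.00137, edgeR), while SNAI1 and SNAI2 did not pass, at log2 -0.30 ± 0.12 and -0.48 ± 0.20.

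Among 14 linker genes, whose proteins tie filaments to junctions and to other polymers, 13 were tested, 5 fell and 1 rose. PKP3, plakophilin 3 of the desmosomal plaque, fell 2.05-fold from 129 ± 19.8 to 62.3 ± 3.25 CPM (adjusted p = 3.2e-05, edgeR). MACF1, a linker of actin and microtubules, fell 1.36-fold, and PLEC, the large linker plectin, fell 1.23-fold from 829 ± 23.9 to 675 ± 25.2 CPM (adjusted p = 7.9e-05 and 0.00029, edgeR). EPPK1, epiplakin, which binds keratins, rose 1.38-fold (adjusted p = 0.000352, edgeR).

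Transcripts of lamina partners changed in both directions. All 15 genes were tested, 5 rose and 4 fell. LBR, the lamin B receptor, rose 1.28-fold from 137 ± 2.66 to 175 ± 5.56 CPM (adjusted p = 8.4e-05, edgeR). TOR1AIP1, which encodes the lamina-binding protein LAP1, and SYNE2, the nesprin 2 gene, rose 1.19-fold and 1.35-fold (adjusted p = 0.00359 and 0.00659, edgeR). EMD, emerin, which binds A-type lamins, fell 1.35-fold from 99.4 ± 11.4 to 73.1 ± 1.41 CPM (adjusted p = 0.000496, edgeR). TOR1A, torsin A of the nuclear envelope, and LEMD2 fell by 0.32 and 0.33 on the log2 scale (adjusted p = 0.00137 and 0.00751, edgeR), and the LEMD2 call was lost without MLL4KO replicate 3 (log2 -0.28) and without the libraries with neuronal transcripts (log2 -0.39). In the set of 5 enzymes that farnesylate and trim prelamin A, ICMT, the methyltransferase of the tail, fell 1.24-fold (adjusted p = 0.000541, edgeR), RCE1, the endoprotease before it, fell 1.19-fold (adjusted p = 0.0092), and FNTA, the farnesyltransferase alpha subunit, rose 1.14-fold (adjusted p = 0.016). With GC and length trends removed, TOR1AIP1 (log2 0.10), FNTA (log2 0.04) and RCE1 (log2 -0.11) were no longer called, RCE1 also not without MLL4KO replicate 1 (log2 -0.24), and FNTA also not without MLL4KO replicate 1 (log2 0.19) or 3 (log2 0.18). Without the libraries with neuronal transcripts neither RCE1 (log2 -0.29) nor FNTA (log2 0.21) was called, and FNTA was not with DESeq2 (log2 0.20).

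**Figure D4:**
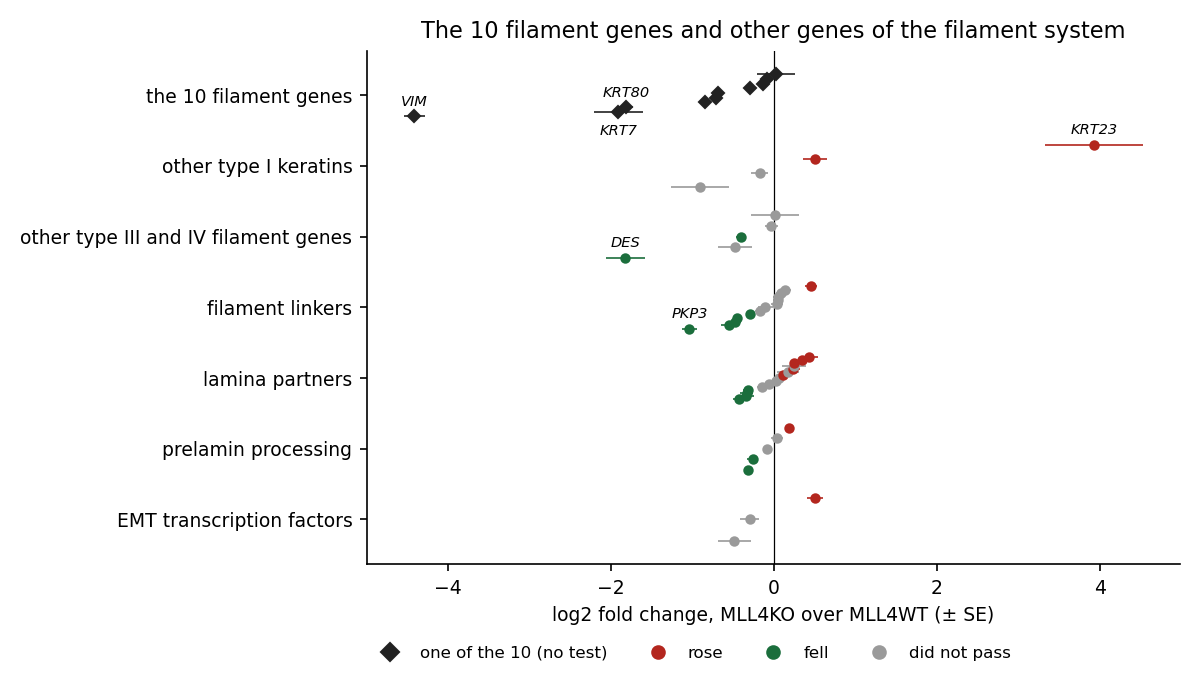
Log2 fold change (MLL4KO over MLL4WT, bars ± SE) of the 10 filament genes (diamonds, not tested) and of the tested genes of 6 partner lists (circles: rose, fell, did not pass). VIM, KRT7 and KRT80 lie furthest left among the 10, DES and PKP3 furthest left among the partners, and KRT23 furthest right.

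Markers of other cell types were read beside these values. Of 8 colorectal epithelium markers 3 were tested, and EPCAM fell 1.43-fold from 291 ± 9.62 to 203 ± 6.20 CPM (adjusted p = 3.77e-06, edgeR), while CDH1 and CDX2 did not pass and CDX1 and CEACAM5 had 0 counts in every library. Their summed level, most of it EPCAM, was 324 to 342 CPM in MLL4WT and 237 to 252 CPM in MLL4KO. CDX2 averaged 28.7 and 30.5 CPM in MLL4WT and MLL4KO, and CDH1 10.9 and 11.3 CPM. Fibroblast markers, 8 genes of which 4 were under 1 CPM in every library, summed to 30.2 to 32.6 CPM in MLL4WT and 31.6 to 36.0 CPM in MLL4KO. Of the 4 tested, COL3A1 fell from 5.22 ± 0.288 to 0.776 ± 0.367 CPM (adjusted p = 1.57e-05, edgeR). COL1A1 rose 1.22-fold (adjusted p = 0.0106, edgeR) and PDGFRB rose 1.57-fold (adjusted p = 0.0229, edgeR), a call lost without MLL4KO replicate 1 (log2 0.63) or 2 (log2 0.65). Neither COL1A1 nor PDGFRB was called without the libraries with neuronal transcripts (log2 0.30 and 0.78) or with DESeq2 (log2 0.29 and 0.68). Leukocyte markers summed to 2.38 to 6.55 CPM in MLL4WT and 3.82 to 4.45 CPM in MLL4KO, and endothelial markers to 1.90 to 2.19 and 3.23 to 3.94 CPM. The part of such cells in the VIM difference was not tested.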

How the data were processed

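Poly(A)-selected RNA of 3 MLL4WT and 3 MLL4KO libraries was sequenced. The authors deposited 1 table of estimated counts per gene for the whole series, in which every value was already whole. The submitters' processing notes name Salmon 1.8.0, DESeq2 1.44.0 and hg38 with no role or order, and no use of strand is stated in the sources used here. Symbols were matched for 55764 of 59715 IDs and GENCODE 29 coordinates (GRCh38) for 56227.

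The counts were filtered with filterByExpr, scaled by TMM and fitted in edgeR 4.0.16 (R 4.3.3) with a robust quasi-likelihood test of MLL4KO against MLL4WT, with Benjamini-Hochberg adjustment over 14543 genes and a threshold of 0.05. Folds are from that fit, and levels are CPM. The fit was tested on simulated counts of 14543 genes, with 50 genes changed at each fold. It recovered 46% of changes of 1.25-fold, 78% of 1.5-fold, 96% of 2-fold and 100% of 4-fold. Among the unchanged genes 23 were called falsely. A gene with a small fold that did not pass may therefore still differ, and some calls may be false. Alternatives used DESeq2 1.42.0, limma 3.58.1 (voom), other scalings and filters, a flow cell term, GC and length trends removed, the replicate block and left-out libraries. Leaving out MLL4WT replicate 3 and MLL4KO replicate 1 together was added after seeing the data. Means are ± SD over 3 libraries and log2 fold changes ± SE.

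Named were the 10 genes, up to 3 called genes in each direction with the smallest adjusted p per partner list, and every called neighbour. Also named were the 3 genes outside the 10 most like each of VIM, KRT7 and KRT18, and KMT2D and KMT2B. Members and lists were chosen with earlier results of these data known.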

Additional observations from a re-analysis of the deposited data

How the results depend on the processing

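The 10 genes were selected on this contrast, and the alternatives refit the same libraries. Their calls below describe dependence on processing and are no test of the 10. VIM, KRT7, KRT8, KRT18, KRT80 and LMNA were among the genes called lower in all 17 alternatives, and VIM ranged from -4.68 to -4.28 on the log2 scale. Of the 10 genes, 7 to 9 were called when a library was left out and 6 with GC and length trends removed. Over all genes, 6021 of 14543 tested were called, and 6213 of 14543 with GC and length trends removed. Without MLL4WT replicate 3 and MLL4KO replicate 1, 3554 of 14573 were called, 7 of the 10 among them. Without a single library the calls ran from 4479 of 14777 to 7343 of 14843. Scaling moved the split of directions: 2885 higher and 3136 lower became 3706 and 2394 with unscaled library totals and 3561 and 2475 under upper quartile scaling. Replicate numbers did not pair the libraries: same-numbered deviations correlated at 0.02, 0.03 and -0.01. With the replicate block 5713 of 14543 genes were called, 8 of the 10 among them, with 22 partner and 11 neighbouring genes against 23 and 12. VIM-AS1 lost its call under it. Depth limits KRT7 and SYNM, at 39 and 161 counts over MLL4KO. SYNM, which was not called in any of the 17, was negative in 6 of them and ranged from -0.11 to 0.20, while the other 9 genes were negative in all.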
